A study of Mus musculus with 36 samples.

Results

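Of 8536448 distinct autosomal nucleotides at which an apurinic or apyrimidinic (AP) site was recorded in 24-month-old mice, 4015 were recorded in 3 or more of 12 AP libraries. A nucleotide was defined by its chromosome, position and strand, and these 4015 were chosen by that recurrence alone, so their number of AP libraries is a description of the choice. They are called recurrent AP nucleotides here. A further 121267 nucleotides were found in exactly 2 AP libraries and 8411166 in exactly 1.

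The samples came from 2 male C57BL/6J mice aged 24 months, without any stated treatment or altered allele, and comprised 6 tissues: bone marrow after lysis of red cells, brain, heart, liver, peripheral blood mononuclear cells (PBMCs) isolated on a Ficoll gradient, and motile sperm from the tail of the epididymis. Each of the 12 tissue samples gave an AP library, made with SSiNGLe-AP, and a library of DNA single-strand breaks (SSBs), made with SSiNGLe, both of which record lesions at the resolution of a nucleotide. DNA of sperm was extracted with a different kit from that of the other tissues, so tissue and kit cannot be told apart for sperm. The tissue labels could not be checked against marker genes, since RNA was not used here, and all samples were bulk tissue, so the cells that carried a lesion are not known.

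An AP site is a sugar in the DNA backbone that has lost its base, either spontaneously, which happens most readily at purines, or through a DNA glycosylase that removes a damaged base. In base excision repair the endonuclease Apex1 cuts the backbone 5′ of the AP site, which leaves a strand break as an intermediate until the gap is filled and sealed. AP sites and SSBs are therefore linked steps of the same repair route.

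Sequences around recurrent AP nucleotides could be read where they lie in the promoter windows of RefSeq for GRCm38.p6, which reach from 250 bases before to 50 bases after an annotated start. A gene can have more than 1 window. The 31396 autosomal windows held 26 of the 4015 recurrent nucleotides, of which 12 had no other recurrent nucleotide less than 1 kb away. These 12 are shown because they are the only sequences of spatially separate members at hand. Each is written 5′ to 3′ on the strand of the lesion with up to 14 bases on either side, as far as the window goes, and the capital marks the recurrent AP nucleotide.
Klhl23, chr2:69822598-69822626, plus strand: tctccccgcacgccAagggccagggccgg
Olfr1157, chr2:87968235-87968263, plus strand: ttgtacaaaatgccAtagtctttgtttca
Itga4, chr2:79255349-79255377, minus strand: cctgggtgtggtgcAgtggctcacagcct
Gm31210, chr3:85342150-85342170, plus strand: ggtatctgcagcccAgtagtt
Chia1, chr3:106113416-106113431, plus strand: ttgtagttagagccAg
Trit1, chr4:123016525-123016553, plus strand: cgcgttctgagccgGagatccgcgccggc
Fam229a, chr4:129491109-129491137, plus strand: ctcactaaatgccgGaacgctctgggact
Cfap161, chr7:83794892-83794920, plus strand: agttgccagttgccAgttggtcaagatct
Naalad2, chr9:18385987-18386015, plus strand: tagagaggagttggAagccccgggggagc
Fbxw16, chr9:109449165-109449193, plus strand: ttaaagacttggccAaagatttagcagga
Morc2b, chr17:33139634-33139657, minus strand: tgggagttgtggccAgtggccggc
Trpd52l3, chr19:30003540-30003568, minus strand: caggtatgcacaccAaattgtctggcgcc

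All 12 capitals are purines, 10 of them adenine, and 8 of the 12 stand at the end of the 3 bases CCA. Their positions relative to the start of their window ranged from 236 bases before it at Trpd52l3 to 48 bases after it at Chia1. This annotated start is not always the outer end of the gene. Except for the nucleotide at Chia1, which was in 4 AP libraries, each was in exactly 3. The genes include those of an olfactory receptor (Olfr1157), an integrin subunit (Itga4), an acidic chitinase (Chia1) and an enzyme that modifies transfer RNA (Trit1).

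The promoter window with most recurrent nucleotides was that of the long noncoding RNA gene Gm33862, inside a dense region of chromosome 11 described below. Its 250 bases before the gene start are shown on the plus strand, with the 11 recurrent nucleotides in capitals, 10 on the plus and 1 on the minus strand.
Gm33862, chr11:3136826-3137075, plus strand: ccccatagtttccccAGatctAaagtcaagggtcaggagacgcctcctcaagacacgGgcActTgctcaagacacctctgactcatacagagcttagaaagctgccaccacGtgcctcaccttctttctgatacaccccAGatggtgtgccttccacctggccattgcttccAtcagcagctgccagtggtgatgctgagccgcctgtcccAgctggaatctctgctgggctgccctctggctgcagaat

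Here 4 of the 11 stood at the end of CCA, and in both stretches with adjacent capitals the first was the adenine of CCA and the second the guanine after it. The 11 nucleotides were in 3 to 7 AP libraries each.

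The same sequence pattern was present in AP nucleotides of fewer libraries and was more frequent with more libraries. Adenine stood at the AP nucleotide in 38.2% of the 61241 window nucleotides of exactly 1 AP library, in 57.1% of the 833 of exactly 2 and in 69.2% of the 26 recurrent ones, while adenine makes up 23.2% of the windows over both strands. Cytosine stood 2 bases 5′ of the nucleotide in 52.8%, 67.9% and 73.1%, and 1 base 5′ of it in 40.4%, 51.3% and 65.4%. Cytosine makes up 26.8% of the windows. A purine stood at the nucleotide in 74.4%, 88.2% and 96.2%, the last being 25 of 26.

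The letters CCA ending at the nucleotide were found on the lesion's strand in 11.5% of nucleotides of exactly 1 AP library, in 25.6% of those of exactly 2 (95% exact binomial interval 22.7% to 28.7%) and in 12 of the 26 recurrent nucleotides (46.2%, interval 26.6% to 66.6%). Counting every nucleotide of the windows on both strands, 2.04% end these 3 bases. Since 31388 of the 31396 windows hold CCA on either strand, its presence in a window says nothing about recurrence. Intervals here cover counting error only, and because 11 of the 26 recurrent nucleotides share the Gm33862 window they are not independent of each other.

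**Figure D1:**
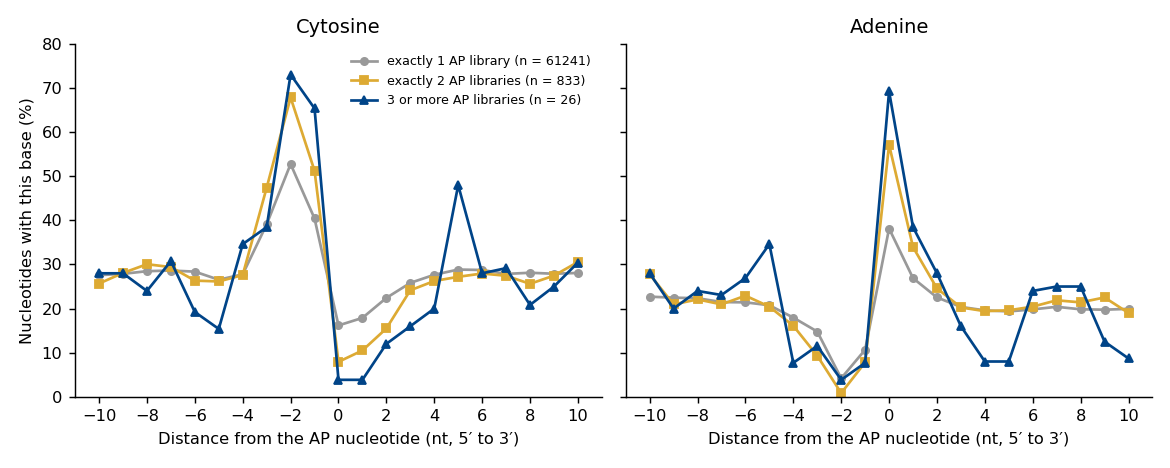
Percent of AP nucleotides in promoter windows with cytosine (left) or adenine (right) at each distance from the AP nucleotide, from 10 nt 5′ to 10 nt 3′ on the lesion's strand, for nucleotides of exactly 1, exactly 2 and 3 or more AP libraries. Cytosine is highest 2 nt 5′ of the nucleotide (52.8%, 67.9% and 73.1%) and adenine is highest at the nucleotide itself (38.2%, 57.1% and 69.2%), while the line of the 26 recurrent nucleotides moves widely elsewhere because of their small number.

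Most recurrent nucleotides were only just recurrent. Exactly 3 AP libraries held 3374 of them, 4 libraries 378, 5 libraries 132 and 6 libraries 64. A further 21 were in 7 libraries, 18 in 8, 10 in 9, 2 in 10, 6 in 11 and 10 in all 12. The values on either side of the threshold were close for position in genes. An annotated gene contained 65.2% of the nucleotides of exactly 3 libraries and 62.6% of those of exactly 2, and 11.97% and 10.1% lay within 1 kb of a gene end. They were farther apart for SSBs, with 7.11% and 1.20% found in at least 1 SSB library.

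**Figure D2:**
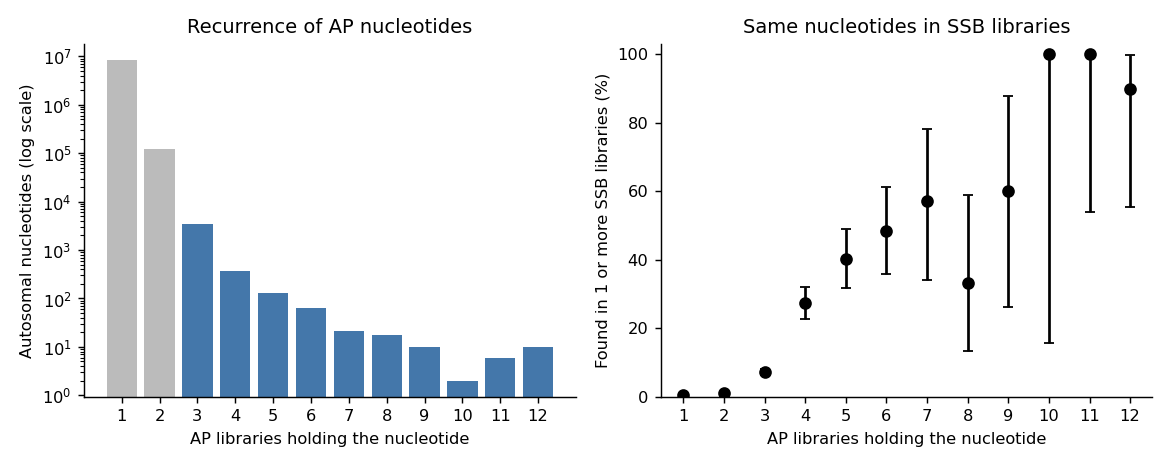
Left, number of autosomal AP nucleotides by the number of AP libraries that held them, on a log axis, with recurrent ones in blue. Right, percent of the same nucleotides found in at least 1 of the 12 SSB libraries, with 95% exact binomial intervals. The share is 0.568% for 1 library, 7.11% for 3 and 27.2% for 4, and beyond 6 libraries the intervals are wide because each class holds at most 21 nucleotides.

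The recurrent nucleotides fell into 2 kinds by spacing. Without another recurrent nucleotide less than 1 kb away were 2628 (65.5%), called isolated, whose median distance to the nearest other member was 264829 bp. The other 1387 (34.5%), called clustered, formed 93 clusters that together spanned 90217 bp. Of the isolated nucleotides 97.1% were in exactly 3 AP libraries and only 3 were in 5 or more. Of the clustered ones 59.3% were in exactly 3 and 260 (18.7%) in 5 or more. Nucleotides of exactly 2 libraries had another of their own class within 1 kb in 19.01%, and those of exactly 1 library in 99.2%. This share rises with the number of nucleotides in a class. The classes hold 121267 and 8411166 nucleotides, so neither value gives a scale for the 34.5%.

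Clustered nucleotides were often adjacent. A neighbour 1 nt away on the same strand, itself recurrent, was present for 389 of them, and 10 positions were recurrent on both strands. Strand was balanced, with 51.4% of all recurrent nucleotides on the plus strand.

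The depth of the AP libraries was 460719 to 963258 positions (median 739741) and that of the SSB libraries 225011 to 1041983 (median 410489). Between 610 and 1515 recurrent nucleotides were present in an AP library, the fewest in liver replicate 1 and the most in sperm replicate 1. Per 1000000 autosomal AP positions this was 1278 to 1714, with the lowest value again in liver replicate 1 and the highest in bone marrow replicate 1. The 2 libraries of a tissue averaged 1610 ± 148 in bone marrow (SD, n = 2), 1601 ± 101 in heart, 1534 ± 93.4 in sperm, 1527 ± 11.9 in PBMCs, 1448 ± 119 in brain and 1428 ± 211 in liver. The ranges of neighbouring tissues in this order overlapped. No test was made, because presence in these libraries chose the nucleotides.

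**Figure D3:**
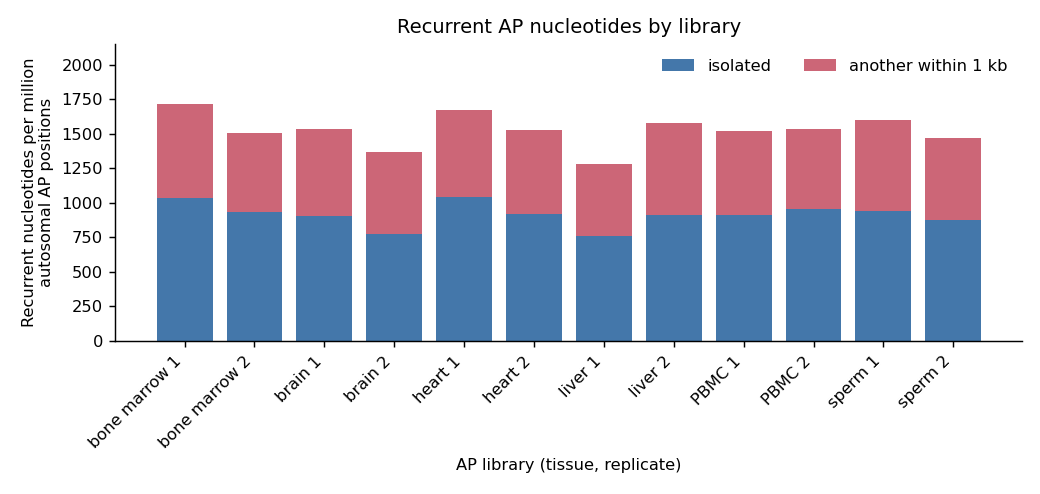
Recurrent AP nucleotides per 1000000 autosomal AP positions in each of the 12 AP libraries, split into isolated ones and those with another within 1 kb. All bars lie between 1278 and 1714, and every library holds both kinds, with 759 to 1042 isolated and 520 to 679 clustered nucleotides per 1000000 positions.

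No recurrent nucleotide was confined to a tissue, which the rule fixes, since a tissue had 2 libraries. The libraries came from 2 tissues for 970 nucleotides (24.2%), from 3 for 2623 (65.3%), from 4 for 293, from 5 for 86 and from all 6 for 43. All 43 of the last group and all 86 of the group before were clustered. Among isolated nucleotides of exactly 3 libraries, 28.02% included both libraries of some tissue, and 60 of the 220 possible sets of 3 libraries (27.3%) are of that kind. Among nucleotides of exactly 2 libraries, 9.30% came from the same tissue, beside 6 of 66 possible pairs (9.09%). Libraries of the same tissue thus shared nucleotides about as often as their number among the possible sets.

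Recurrence was also counted in the 6 AP libraries of one replicate number and looked up in the 6 of the other, so that presence was measured in libraries that did not choose the nucleotides. The 526 or 657 nucleotides chosen this way were present in 11.2% to 25.7% of cases in a held-out library (median 16.2%), and nucleotides of exactly 1 choosing library in 0.145% to 0.382%. The mean difference was 17.05 ± 4.73 percentage points (SD, n = 12 libraries), and it was positive in 12 of 12 (two-sided exact sign-flip permutation test, p = 0.000488, the smallest that 12 libraries allow). Restricted to 260 or 312 nucleotides that were isolated among those chosen this way, the difference was 2.997 ± 1.82 percentage points. It was again positive in 12 of 12 (exact permutation test, p = 0.000488). Isolation was judged here within the choosing libraries only. These are therefore not the isolated nucleotides defined above, and some of them were clustered among the 4015. The libraries share the same nucleotides and come from 2 animals, so they are not 12 independent units. These p-values record only that the difference had the same sign in all 12 libraries. The labels do not state that a replicate number marks the same animal in every tissue.

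The count given with each position was above 1 more often at recurrent nucleotides than elsewhere. What a count of 1 stands for, a read or a molecule, is not given in the sources used here. In the 12 AP libraries 5.74% to 9.31% of the recurrent nucleotides present had a count above 1, with a mean of 7.08% ± 1.05 (SD, n = 12). At all other autosomal positions it was 0.330% to 0.922%. The share was 15.9% ± 2.19 for clustered nucleotides and 1.13% ± 0.666 for isolated ones. The highest count at a recurrent nucleotide was 16 to 43 in each library, and the highest anywhere else was 3 or 4.

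High counts were found at few nucleotides. Among 8666965 entries of the 12 libraries, 504 had a count of 3 or more, and 247 of these were at recurrent nucleotides. All 88 entries with a count of 5 or more were at recurrent nucleotides, and they belonged to 19 nucleotides. None of the entries with a count of 4 or more was at an isolated nucleotide. These counts come from the same libraries as the rule and were not tested.

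The nucleotide with the highest summed count was position 72297176 of chromosome 10 on the minus strand, which lies outside annotated genes, 12025 bp from the pseudogene Gm9923. Its count was 14 to 43 in the 12 AP libraries (median 21.5) and 19 to 41 in the 12 SSB libraries (median 25.5). Position 72297177 had 14 to 28 in AP libraries (median 20.5) and 20 to 47 in SSB libraries (median 37.5). All 12 AP and all 12 SSB libraries thus held both positions. Position 72297175, the base after them on that strand, had 10 to 21 in AP libraries (median 16.5) and was listed in no SSB library. If counts are independent, a count of 0 leaves room for an expected count of up to about 3 at 95% confidence. As all 12 SSB libraries had 0, this limit applies to their summed expected count. The site was named for its high counts, and what a count stands for is not known. The contrast between the 3 adjacent bases was not tested.

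A run of 5 adjacent recurrent nucleotides on the plus strand of chromosome 7, positions 104428093 to 104428097, lay within Trim30a, a gene of the tripartite motif family expressed in immune cells. The first 4, up to position 104428096, are described here. In AP libraries the second of them had a count of 7 to 21 (median 13), the third 6 to 21 (median 9), the first 1 to 8 (median 4) and the fourth 1 to 5 (median 3). In SSB libraries the order differed. The first had 12 to 39 (median 23.5), the second 4 to 23 (median 14.5), the third 0 to 5 (median 3) and the fourth 0 to 3 (median 0.5). All 12 AP libraries held each of these 4 nucleotides, and the highest SSB counts among them stood 1 nt 5′ of the highest AP counts.

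Of the other nucleotides of all 12 AP libraries, position 106331465 of chromosome 14 on the minus strand, 25627 bp from the pseudogene Gm4463, had 1 to 5 in AP libraries (median 2) and was in 7 SSB libraries. Its neighbour 106331466, in 11 AP libraries, was in 11 SSB libraries, and 106331467, in 4 AP libraries, was in all 12 SSB libraries with 3 to 12 (median 9.5). Here too SSBs were more frequent toward the 5′ side, which is the higher coordinate on the minus strand. On chromosome 15, position 75086731 on the minus strand had 1 to 8 (median 3) and position 75086797 on the plus strand 1 to 4 (median 2.5). Positions 75086730 and 75086745 on the minus strand and 75086819 on the plus strand were in 11 AP libraries each.

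Gene-free positions of chromosome 2 completed the nucleotides with most SSB libraries. Position 98667334 on the plus strand, 35265 bp from the noncoding gene Gm33780, was in 7 AP libraries with counts of 0 to 4 (median 1) and in all 12 SSB libraries with 13 to 37 (median 21.5). Position 98667335 beside it was in 10 AP libraries and had 1 to 10 in SSB libraries (median 5). Position 98662233 on the minus strand was in 11 AP libraries with 0 to 6 (median 3) and in all 12 SSB libraries with 1 to 10 (median 2.5). Its neighbours 98662232 and 98662234 were in 8 and 5 AP libraries and in 12 and 11 SSB libraries. Altogether 9 recurrent AP nucleotides were present in all 12 SSB libraries, and 4 of them were present in all 24 libraries.

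The clusters were concentrated in a few places. The 22 clusters of 10 or more nucleotides held 1160 (28.9% of all recurrent nucleotides) and the 10 largest held 965 (24.0%), while 36 of the 93 clusters were pairs. Chromosome 11 carried 854 recurrent nucleotides, 721 of them clustered, against 6.05% of all AP nucleotides on that chromosome. Chromosome 17 carried 367 (9.14%, beside 4.06% of all AP nucleotides) and chromosome 15 carried 230 (5.73%, beside 4.32%). Isolated nucleotides did not follow this pattern, with 133 (5.06%) on chromosome 11.

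**Figure D4:**
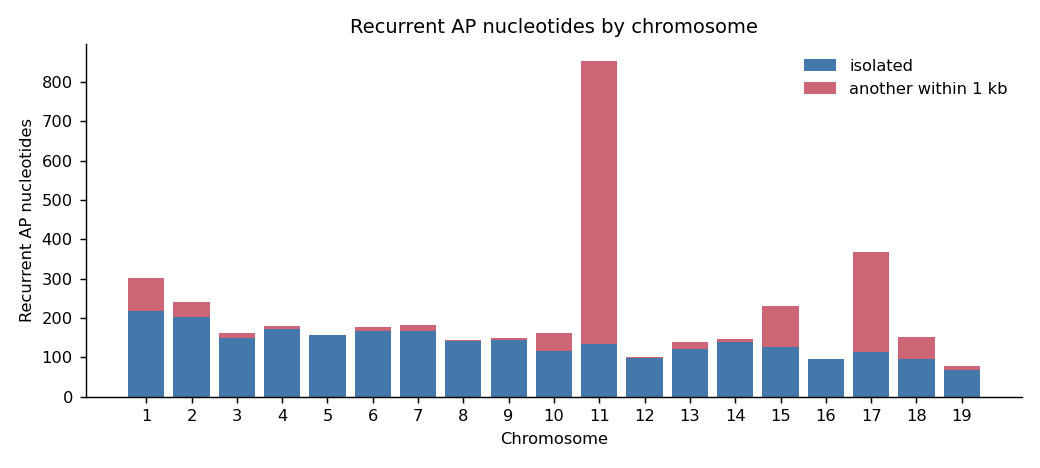
Number of recurrent AP nucleotides on each autosome, split into isolated ones and those with another within 1 kb. Clustered nucleotides stand out on chromosome 11 (721), chromosome 17 (253) and chromosome 15 (104), while isolated ones range from 69 on chromosome 19 to 217 on chromosome 1.

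On chromosome 11, 16 clusters with 716 recurrent nucleotides (17.8% of all) lay between positions 3123836 and 3199710. This stretch covers Sfi1, which encodes a centrin-binding protein of the centrosome, and its neighbours. The largest of these clusters, chr11:3126913-3138109, held 188 recurrent nucleotides among 2371 AP nucleotides, in Pisd-ps1, Sfi1 and Gm33862. The next, chr11:3152429-3163317, held 161, and chr11:3139939-3146663 held 127, both within Sfi1. The other 5 of the 10 largest clusters, with 28 to 57 nucleotides, also lay in Sfi1. In the largest, 23 to 83 of the 188 were present in an AP library (median 59.5), the fewest in liver replicate 1 and the most in sperm replicate 1. At least 1 SSB library held 33 (17.6%), and its 11197 bp held 1802 SSB nucleotides over both strands.

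The largest cluster of all was on chromosome 17, chr17:39843168-39846329, with 193 recurrent nucleotides in 3162 bp, 140 of them on the minus strand. An AP library held 30 to 101 of them (median 54.5), and 118 (61.1%) were in at least 1 SSB library. The same 3162 bp held 2108 SSB nucleotides over both strands. It ended 25 bp before Rn18s-rs5, a pseudogene related to ribosomal RNA. A second cluster of 26, chr17:39848205-39848733, began just after it, within the noncoding gene AY036118. The 1849 bp of Rn18s-rs5 between them contained 1 AP nucleotide, which was not recurrent, and no SSB nucleotide in any library.

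Among the clusters of 10 or more, the one with most recurrent nucleotides per kb was on chromosome 15, chr15:75086443-75086945, where 104 recurrent nucleotides lay in 503 bp. They made up 40% of the 260 AP nucleotides recorded there, and each AP library held 30 to 58 of them (median 48.5). No annotated gene overlapped the cluster, and the nearest, the pseudogene Gm5960, was 11423 bp away. At least 1 SSB library held 71 of the 104 (68.3%). SSBs were dense in the whole span, with 272 SSB nucleotides in the 503 bp over both strands. Whether the overlap exceeds what this density gives was not tested, here or in the other clusters. On chromosome 18 a cluster of 24 in 300 bp lay within Kctd16, which encodes an auxiliary subunit of GABA-B receptors. Of these, 12 were in an SSB library, and the span held 111 SSB nucleotides over both strands.

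Per 1000000 autosomal positions of a library, the cluster spans held 1939 to 2527 in AP and 2123 to 3068 in SSB libraries. The AP values follow from the choice of the spans, which were drawn around nucleotides of these libraries, and no other spans were compared. How reads from repeated sequence were placed is not given in the sources used here. Several genes of these spans are pseudogenes or have similar copies elsewhere, so their positions are uncertain, and the part that read placement has in the clusters was not tested.

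Annotated genes contained 64.8% of the recurrent nucleotides (95% exact binomial interval 63.3% to 66.2%), beside 61.7% of all AP nucleotides. The annotation gives the span of a gene without its exons, so exons and introns were not told apart. Isolated ones were in genes in 63.0% and clustered ones in 68.1%. Within 1 kb of a gene end lay 12.8% (11.8% to 13.8%), beside 9.76% of all AP nucleotides, and 9.09% of the isolated ones. The difference from all AP nucleotides near gene ends thus lay in the clusters, of whose members 19.8% were near a gene end. The nucleotides of these clusters are neighbours and do not count as independent, so no test was made.

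Among gene ends whose direction is known, 125 recurrent nucleotides (3.11%) lay within 1 kb of a transcription start and 125 (3.11%) within 1 kb of a transcript end, beside 3.45% and 3.21% of all AP nucleotides. Of the 1362 recurrent nucleotides in genes of a known and single direction, 49.9% were on the gene's own strand, beside 50.5% for nucleotides of exactly 1 library. The interval, 47.2% to 52.6%, includes 50%.

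The gene ends with most recurrent nucleotides within 1 kb were all in the clusters described above, apart from Gm40034. The lower end of Sfi1 had 56 and the overlapping end of Pisd-ps1 54. The ends of Rn18s-rs5 had 43 and 26, the start of Gm33862 38 and its end 11, the end of AY036118 26, the ends of Gm11400 26 and 24, and the end of Gm40034, a noncoding gene on chromosome 2, 13.

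A recurrent nucleotide was found in 1569 of 47042 autosomal genes (3.34%), and 1327 of these had exactly 1. Genes with 10 or more numbered 19. Sfi1 had 642, or 8.98 per kb, which was 8.35% of the 7686 AP nucleotides in the gene, and 125 of them were in at least 1 SSB library. Pisd-ps1, a pseudogene of phosphatidylserine decarboxylase, had 73 and overlaps Sfi1. Its relative Pisd-ps2 on chromosome 17 had 30, of which 26 were in a cluster at chr17:3080576-3082609. Gm11400 had 35 and Fau-ps2 had 8, both pseudogenes inside Sfi1, and these 2 had the most per kb, 22.7 and 23.7.

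On chromosome 1 a group of neighbouring genes had fewer and more scattered recurrent nucleotides. Sp140 had 27 and Sp110 had 22, 5 and 2 of them isolated, and the genes overlap, so that nucleotides in the overlap count for each. Both encode nuclear body proteins with roles in immune cells. Gm38510 had 19, C130026I21Rik 17, Gm7592 14 and A530032D15Rik 10, in the same neighbourhood, and none of the nucleotides in these 4 genes was in an SSB library. Among all isolated nucleotides only 1.41% were. Clusters of 3 in these genes had 37.5 to 45.2 SSB nucleotides per kb, beside 541 in the chromosome 15 cluster. Whether 0 is low for these genes was not tested. Gm38510 and C130026I21Rik overlap in the same way. Farther along the chromosome, Mroh2a had 16 and the overlapping Hjurp, which encodes the chaperone that places the centromeric histone, had 10.

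The remaining genes of the 20 with most were on chromosomes 2, 10, 11, 17 and 18. AY036118 had 26 and Kctd16 24, all in clusters. E030030I06Rik had 16, which was 10.2% of its 157 AP nucleotides, and Gm40034 had 12, or 14.8% of its 81. Duxf3, a double homeobox gene that belongs to a repeated array, had 10, as did LOC100504180 nearby, and Gm33862 had 14. In 12 of these 20 genes every recurrent nucleotide was clustered.

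Among lists of genes, 1 of 23 base excision repair genes had a recurrent nucleotide (4.35%, beside 3.34% of all autosomal genes). It was Tdp1, which encodes a phosphodiesterase that removes adducts from DNA ends, and it had 1. Olfactory receptor genes had 1 each in 4 of 1420 genes, vomeronasal receptor genes 9 in 6 of 623, and Zfp zinc finger genes 9 in 8 of 409. Their shares of the recurrent nucleotides were 0.0996%, 0.224% and 0.224%, and their shares of all AP nucleotides 0.140%, 0.110% and 0.655%. The Speer and major urinary protein families had 1 recurrent nucleotide each, in 1 of 15 and 1 of 22 genes. Each was 0.0249% of the recurrent nucleotides, beside 0.00874% and 0.00525% of all AP nucleotides. The 63 annotated ribosomal RNA genes had 0, but they held only 1.17e-05% of all AP nucleotides, so this 0 says nothing about them. Genes longer than 500 kb had them in 139 of 225, which together held 228 (5.68%, beside 7.86% of all AP nucleotides), and 219 of these were isolated.

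Protein-coding genes held 54.6% of the recurrent nucleotides and 52.8% of all AP nucleotides, and noncoding RNA genes 8.37% and 10.2%. Pseudogenes held 2.49% and 1.17%, and transcribed pseudogenes 2.81% and 0.205%. Of the isolated nucleotides 0.228% were in transcribed pseudogenes, so the excess there was in clusters, mainly those of Pisd-ps1 and Pisd-ps2. In the other pseudogenes the isolated share was 1.86% (49 nucleotides), still above the 1.17% of all AP nucleotides. That difference was not tested.

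Whether recurrent AP nucleotides were also SSB nucleotides was not used to choose them and was tested. At least 1 of the 12 SSB libraries held 468 of the 4015 (11.7%, 95% exact binomial interval 10.7% to 12.7%), beside 0.582% of all AP nucleotides. Clustered ones were found in 31.1% (431) and isolated ones in 1.41% (37, interval 0.993% to 1.94%). No SSB library held the other 3547 recurrent nucleotides. Of nucleotides of exactly 1 AP library 0.568% were found, and of those of exactly 2 libraries 1.20%. The latter value lies within the interval of the isolated ones.

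In single SSB libraries 0.996% to 3.29% of the recurrent nucleotides were present (median 1.86%), and 0.0215% to 0.108% of the nucleotides of exactly 1 AP library. The lowest share was in sperm replicate 2 and the highest in heart replicate 2, which was also the deepest SSB library. The mean difference was 1.90 ± 0.768 percentage points (SD, n = 12), positive in 12 of 12 libraries (two-sided exact sign-flip permutation test, p = 0.000488, the smallest possible). For isolated nucleotides alone it was 0.0848 ± 0.0600 percentage points, positive in 11 of 12 (exact permutation test, p = 0.000977), with 0 to 7 nucleotides present in a library. Without the clusters of 10 or more the difference was 0.696 percentage points and positive in 12 of 12 (exact permutation test, p = 0.000488). In a library the share of isolated nucleotides present averaged 0.133%, beside 0.122% for nucleotides of exactly 2 AP libraries. The difference between these 2 shares was not tested. Every value rests on the same nucleotides looked up in 12 libraries of 2 animals, so the libraries are not independent units.

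Recurrent SSB nucleotides, defined in the same way in the 12 SSB libraries, numbered 958, and 94 of them were also recurrent AP nucleotides. This is 9.81% of the recurrent SSB nucleotides and 2.34% of the recurrent AP nucleotides. All but 1 of the 94 were clustered.

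SSBs were most frequent not at the recurrent AP nucleotide but 1 nt 5′ of it on the same strand. For isolated nucleotides an SSB was recorded in at least 1 library at this place in 3.20% (84 of 2628), at the nucleotide itself in 1.41%, and 1 nt 3′ of it in 0.381%. At 10 nt on either side the values were 0.381% and 0.495%. For clustered nucleotides the values were 47.7% at 1 nt 5′, 31.1% at the nucleotide and 18.3% at 1 nt 3′, with 17.02% and 17.8% at 10 nt. Nucleotides of exactly 1 AP library had the same shape at a lower level, with 0.965%, 0.568% and 0.310%. Those of exactly 2 AP libraries had 2.44%, 1.20% and 0.581%.

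The mean difference between recurrent nucleotides and those of exactly 1 library at the position 1 nt 5′ was 2.95 ± 1.36 percentage points over the 12 SSB libraries, and 0.235 ± 0.158 for isolated nucleotides, each positive in 12 of 12 (two-sided exact sign-flip permutation test, p = 0.000488 for each). This comparison was added after the profile of the same libraries had been seen, so its p-values are not independent of that choice. In the promoter windows cytosine was most frequent 1 nt 5′ of an SSB position (54.8% of 57664) and 2 nt 5′ of an AP position, so that the base patterns of the assays were offset by the same 1 nt. On which side of a lesion each assay places its position is not given in the sources used here.

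**Figure D5:**
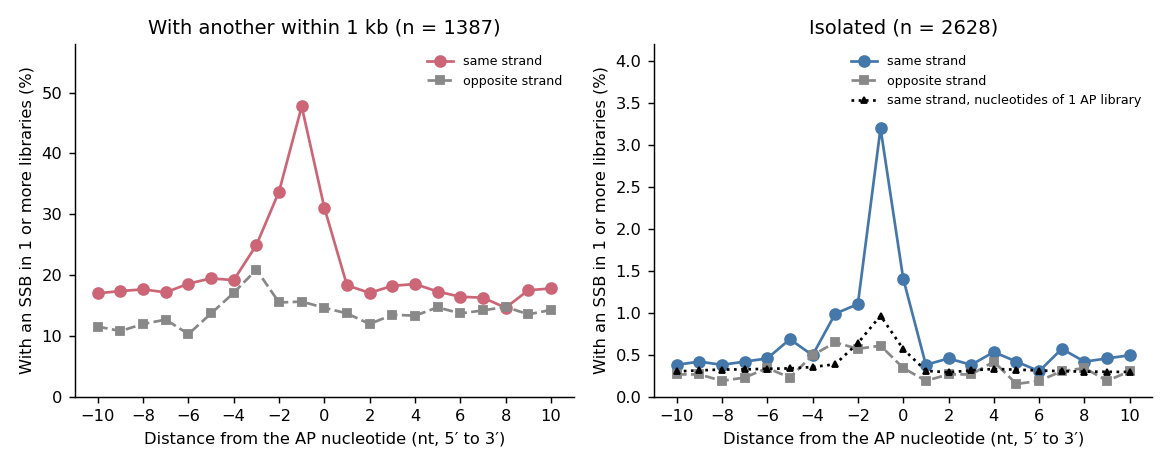
Percent of recurrent AP nucleotides with an SSB in at least 1 of the 12 SSB libraries at each distance from 10 nt 5′ to 10 nt 3′, on the same and on the opposite strand, for clustered (left) and isolated nucleotides (right, with nucleotides of 1 AP library for comparison). The vertical scales differ. The same-strand line is highest 1 nt 5′ in both panels, at 47.7% and 3.20%.

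On the opposite strand, AP sites were most frequent 4 nt toward the 5′ side of the recurrent nucleotide. They were recorded there for 28.05% of the clustered and 1.90% of the isolated nucleotides, beside 12.9% and 0.381% at 10 nt in that direction. The value was 1.06% for nucleotides of exactly 1 library and 1.96% for those of exactly 2, close to that of the isolated ones. These values are a description of the AP libraries themselves.

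SSB libraries of the 6 tissues were not shown to differ in the share of their positions that fell on recurrent AP nucleotides. Per 1000000 autosomal SSB positions the libraries had 129 to 263, with tissue means of 225 ± 54.5 in bone marrow (SD, n = 2), 201 ± 16.4 in liver, 181 ± 15.9 in brain, 172 ± 45.1 in PBMCs, 157 ± 39.5 in heart and 147 ± 2.18 in sperm. The F statistic over tissues was 1.39 (exact permutation test, enumerating every way to pair the 12 libraries, p = 0.369).

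Recurrent nucleotides present in the AP libraries of a tissue were not found more often in SSB libraries of the same tissue than of the others. Joint presence divided by the product of both presences averaged 1.25 for the 6 same-tissue combinations and 1.30 for the 30 others, so that they differed by -0.0490 (exact permutation of the 720 tissue orders, one-sided, p = 0.849). For isolated nucleotides, of which only 37 had an SSB, the difference was 0.149 (exact permutation test, p = 0.249).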

How the data were processed

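The authors deposited, for each library, a list of stranded positions of 1 nucleotide, each with its raw count, not normalized and with replicates kept apart. The submitters' processing notes name the builds mm10 and GRCm38; the aligner, filters and treatment of repeated alignments are not given in the sources used here. A position entered once whatever its count, as the study's methods do. All 24 lists were used; the other ages and RNA were not used here.

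Positions of 12 AP libraries on the 19 autosomes were merged by chromosome, position and strand, and those of 3 or more libraries retained. Members less than 1000 bp apart formed a cluster. Genes were the whole spans of 47042 autosomal RefSeq genes (GRCm38.p6); direction came from the promoter table, which gave 27025 of 49943 genes a strand. Shares carry 95% exact Clopper-Pearson intervals, for counting error only. Libraries were compared with exact sign-flip tests (4096 patterns) and exact permutation tests, at a threshold of 0.05; both were tested on simulated data. Computation used scipy 1.17.1, pandas 2.3.3 and numpy 2.4.6 under Python 3.11.15, and figures matplotlib 3.10.9.

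The members and the gene lists were chosen with earlier results of these data known. Named were the 20 genes with most members, the 10 with most per kb among genes of 5 or more, the 10 gene ends with most members within 1 kb, the 15 nucleotides of most AP libraries, the 10 of most SSB libraries, the 10 largest clusters, the fixed lists, and all isolated members in promoter windows. The letters CCA, the clusters beyond the 10 largest and the offset of SSBs were picked after values were seen. Alternatives were other thresholds, windows, distances, strand, depth, match and leaving out each library.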

Additional observations from a re-analysis of the deposited data

Results flagged for a closer look

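The X and Y chromosomes, which were outside the comparisons, also held nucleotides present in 3 or more AP libraries. There were 31 of them, 27 on X and 4 on Y, chosen by the same recurrence and not tested. Of the 31, 9 had another within 1 kb, 5 (16.1%) were in at least 1 SSB library, and the most AP libraries for any of them was 8.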

How the results depend on the processing

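The number of recurrent nucleotides depended on the threshold. It was 125282 with 2 or more libraries, 641 with 4 or more, 66 with counts above 1 only, 1277 with every library thinned to the smallest, and 2862 to 3560 with each AP library left out. The share with another within 1 kb was 20.2% with 2 or more libraries, 84.6% with 4 or more, 36.5% with 3 or more tissues, 31.1% for less than 100 bp, 37.7% for less than 10 kb, and 35.6% to 38.5% with each AP library left out. The share within genes was 62.7% with 2 or more, 62.4% with 4 or more, 63.0% for isolated ones, 62.6% without clusters of 10 or more, 54.6% for protein-coding genes and 64.0% to 65.1% with each library left out. The share within 1 kb of a gene end was 10.2%, 17.005%, 9.09%, 9.35% and 4.66% in the same order, 20.7% for 2 kb, and 12.6% to 13.4% with each library left out. The share of entries with a count above 1 was 1.16% with 2 or more, 21.0% with 4 or more, 8.28% with 3 or more tissues, 1.13% for isolated ones, 3.53% without clusters of 10 or more and 7.36% to 8.08% with each library left out. The settings without clusters of 10 or more, the isolated ones for counts, gene ends and held-out libraries, and the 1 nt offset were chosen after seeing the data.

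The excess of SSBs at recurrent nucleotides kept its direction and its side of the threshold under all 35 alternatives. It was 1.78 to 1.98 percentage points when an SSB library was left out, 2.01 to 2.33 when an AP library was, and 0.132 with 2 or more libraries. With the 2 libraries of a tissue averaged it was positive in 6 of 6 tissues (two-sided exact sign-flip permutation test, p = 0.03125, the smallest that 6 tissues allow). Presence in held-out libraries kept its direction and its side of the threshold under its 4 alternatives. The F statistic for SSB positions over tissues became 5.99 with nucleotides of 2 or more libraries (exact permutation test, p = 0.0262) and ranged from 0.892 to 2.70 without each SSB library. With the replicate number as a block it was 1.28 (exact permutation test, p = 0.407). Replicate 1 was above replicate 2 in 5 of 6 tissues, and the labels do not say that a number pairs samples. The same-tissue difference reversed to 0.00545 with 2 or more libraries and to 0.149 for isolated ones, and passed the threshold in neither. The causes were not tested.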
